A study of Mus musculus with 6 samples.

Results

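The microRNA content of small mouse oocytes was read from 2 one-colour arrays. The oocytes were taken from C57BL/6 mice of 6 to 8 weeks, and their diameter was 20 to 50 µm; the sample titles call them non-growing, another label places them in primordial follicles, and the sample description sets only an upper limit of 60 µm. Oocytes were pooled, the number of oocytes and mice in a pool is not stated, and the series text describes duplicate runs, so the spread between the arrays may be technical. The series holds 4 further arrays, of large oocytes of 60 to 80 µm: 2 from mice of 6 to 8 weeks and 2 from mice of 41 to 43 weeks. These enter here only through their detected entries and their summed signal, without a test between groups. Each array carried 567 mouse microRNA entries from miRBase release 10.1, and an entry was kept where the image software flagged it as detected on both arrays. This held for 55 of the 567 mouse entries (9.70%), 56 entries being detected on array 1 and 59 on array 2. All 55 were also detected on each of the other 4 arrays of the series.

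MicroRNAs are short RNAs that guide Argonaute proteins to messenger RNAs, mainly through the seed, bases 2 to 8 from the 5′ end. Most are cut from a hairpin by Drosha and then Dicer, and RNAs with the same seed share many predicted targets, so that a family can be read as a unit. In the mouse oocyte, Dicer is needed for meiosis, while microRNA activity is known to be low in grown oocytes. Oocytes of primordial follicles rest in meiotic prophase for weeks to months, surrounded by a few flat granulosa cells.

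The sequences that carry the family make-up are given first. They are RefSeq mature sequences of GRCm38.p6, matched by name for 47 of the 55 entries, with the seed in capitals. The remaining 8 are named only: miR-292-3p, miR-30d, miR-320, miR-689, miR-709, miR-712, miR-715 and miR-720. The largest group with one seed was let-7, a family of microRNAs that rises in differentiating cells and targets Lin28 and Hmga2. It is shown beside miR-202-3p, a gonadal microRNA, whose seed departs from it in the last base:
let-7f: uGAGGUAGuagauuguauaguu
let-7a: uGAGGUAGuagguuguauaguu
let-7g: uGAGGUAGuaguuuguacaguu
let-7i: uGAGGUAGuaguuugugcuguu
let-7d: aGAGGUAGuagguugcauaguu
let-7b: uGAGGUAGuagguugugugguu
let-7c: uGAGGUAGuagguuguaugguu
miR-202-3p: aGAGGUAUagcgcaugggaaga
With positions counted from 1 at the 5′ end and the base of let-7a first, let-7f differs from let-7a by G12A alone, let-7c by A19G alone, and miR-202-3p within the seed by G8U alone.

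The miR-17-92 cluster and its paralogs, known for promoting proliferation, contributed 3 seeds. Here miR-17, miR-106a and miR-19a, which were not detected on both arrays, are set beside their detected relatives to show how close the sequences are:
miR-92a: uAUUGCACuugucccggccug
miR-19b: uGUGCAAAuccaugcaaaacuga
miR-19a: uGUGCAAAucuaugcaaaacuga
miR-20a: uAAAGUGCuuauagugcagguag
miR-20b: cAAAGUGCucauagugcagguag
miR-93: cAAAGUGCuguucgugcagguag
miR-17: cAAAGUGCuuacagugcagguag
miR-106a: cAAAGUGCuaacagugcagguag
Relative to miR-19b, miR-19a carries C11U alone. Relative to miR-20a, miR-17 carries U1C and U12C.

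Other seeds shared by several detected entries are shown next, together with miR-141 and miR-200c, which belong to one family but differ in a seed base. The miR-15 and miR-16 family restrains the cell cycle in other cells, and miR-103 and miR-107 share with it a core of 6 bases, AGCAGC, shifted by a base. In the same way miR-291a-3p and miR-294, of the early-embryo cluster, share the core AAGUGC with miR-20a, miR-20b and miR-93:
miR-16: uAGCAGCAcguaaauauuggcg
miR-15b: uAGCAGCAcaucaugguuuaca
miR-15a: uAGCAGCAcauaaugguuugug
miR-103: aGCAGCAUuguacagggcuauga
miR-107: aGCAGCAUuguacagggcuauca
miR-30e: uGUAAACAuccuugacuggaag
miR-30a: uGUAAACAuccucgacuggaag
miR-30c: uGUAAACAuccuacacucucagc
miR-29b: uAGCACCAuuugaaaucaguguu
miR-29a: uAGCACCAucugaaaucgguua
miR-26b: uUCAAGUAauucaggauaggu
miR-26a: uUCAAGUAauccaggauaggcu
miR-141: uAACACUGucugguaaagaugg
miR-200c: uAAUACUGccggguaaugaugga
miR-291a-3p: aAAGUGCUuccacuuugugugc
miR-294: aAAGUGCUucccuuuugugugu
Members of a family this alike may bind each other's probes, and how far the array separates them was not tested.

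Values below are total signals per entry, background-subtracted intensities on a linear scale, given for array 1 and then array 2. Different entries are read by different probes, so the ranking and the shares are of signal and not of the number of molecules. A single entry stood far above all others. The entry miR-720, since traced to a fragment of a transfer RNA, gave 15222.7 and 15760.9, which was 90.8% and 91.3% of the summed signal of the 55 detected entries. It was left out of all shares below, which leaves 54 entries with a summed signal of 1544 and 1504.

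The next entry was miR-709, with 471.5 and 442.0. It held 29.96 ± 0.809% of the remaining signal (SD, n = 2 arrays, as for all shares below). MicroRNA miR-1224 followed with 129.2 and 123.4, a share of 8.29 ± 0.113%. Its hairpin lies within Vwa5b2 and is known as a mirtron, an intron whose splicing replaces the Drosha cut. Its mature sequence is given because it has the highest G content of the 47 matched sequences, at 61.9%:
miR-1224: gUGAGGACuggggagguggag
No other entry reached a mean signal of 100. Below these 2 the signals fell gradually. Of the 54 entries, 16 had a mean between 20 and 100, 15 between 10 and 20, and 21 below 10, and these last held 10.1% of the signal together.

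**Figure D1:**
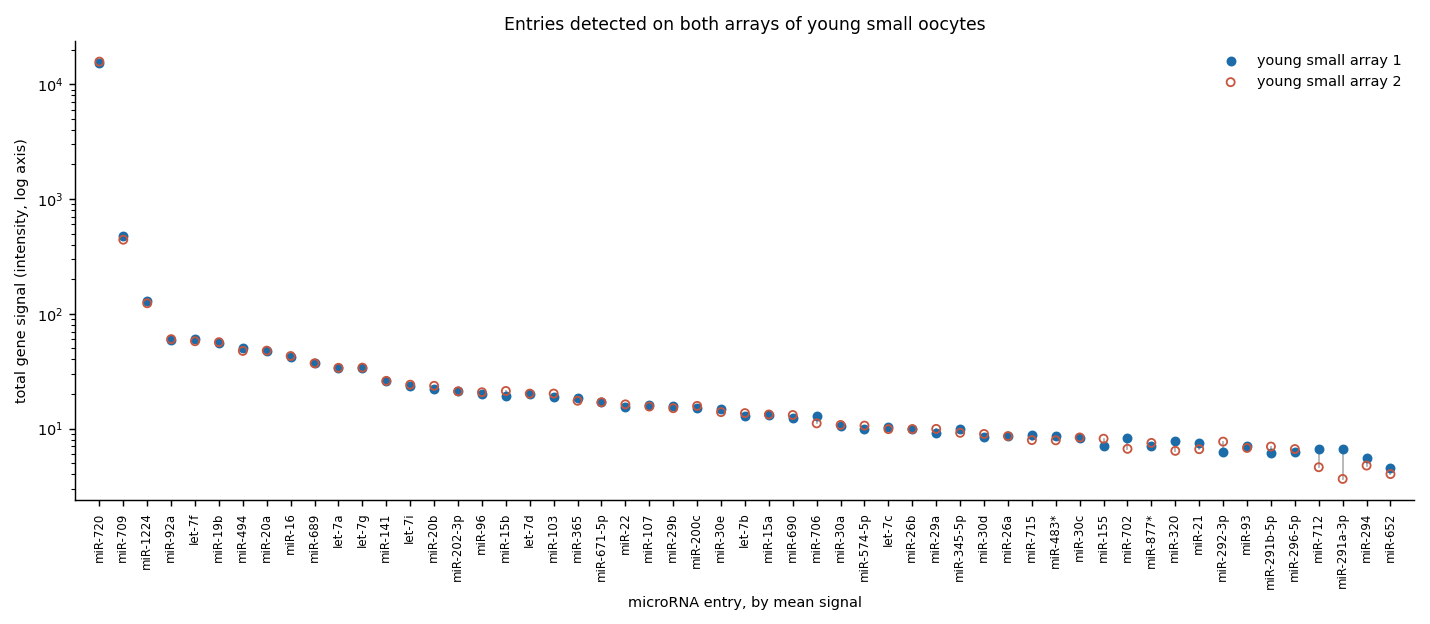
Total signal (intensity, log axis) of the 55 mouse entries detected on both young small arrays, ordered by mean signal, with array 1 as filled and array 2 as open circles. miR-720 lies at 15222.7 and 15760.9, miR-709 near 450 and miR-1224 near 126, and the other entries run from about 60 down to 4; the arrays part visibly only at the low end, at miR-712 and miR-291a-3p.

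On the mean of both arrays, 6 entries held 50% of the signal: miR-709, miR-1224, miR-92a, let-7f, miR-19b and miR-494. This count rests on miR-709, since 10 entries were needed with miR-709 also left out. Taken singly, array 1 needed 5 entries and array 2 needed 6. A share of 80% was reached with 22 entries and of 90% with 34.

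**Figure D2:**
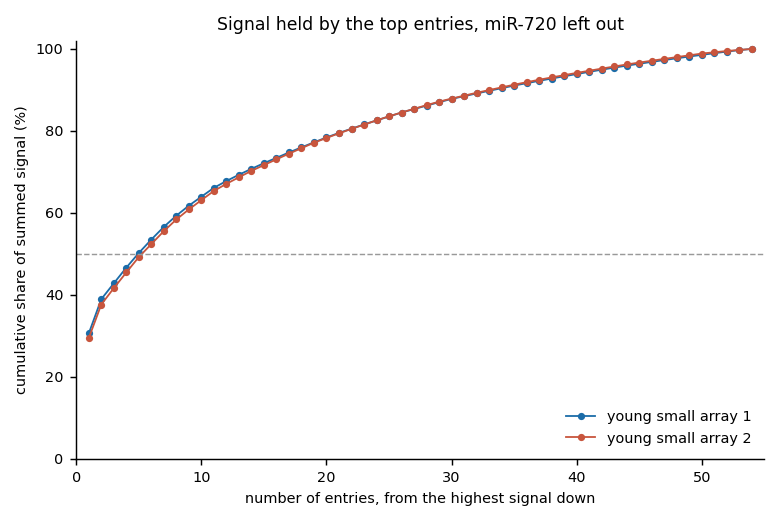
Cumulative share of the summed signal (%) against the number of entries, from the highest signal down, for each young small array with miR-720 left out; the dashed line marks 50%. The curves of the 2 arrays nearly coincide, crossing the line at 5 entries on array 1 and 6 on array 2.

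Entries numbered miR-689 to miR-720 in the array's catalogue were detected for 8 of 32, beside 55 of 567 (9.70%) for mouse entries at large; this grouping was made after the values were seen. Without miR-720 they held 35.4 ± 0.985% of the signal, most of it from miR-709. Next among them was miR-689, with 37.6 and 37.0. Lower values came from miR-690, with 12.3 and 13.1, and from miR-706, with 12.9 and 11.1. At the low end, miR-715 gave 8.79 and 7.93, and miR-702, a mirtron within Plod3, gave 8.21 and 6.65. Last was miR-712, known to arise from ribosomal RNA precursor, with 6.60 and 4.60. The other 24 entries of that range were not detected, and their highest mean signal was 2.65.

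**Figure D3:**
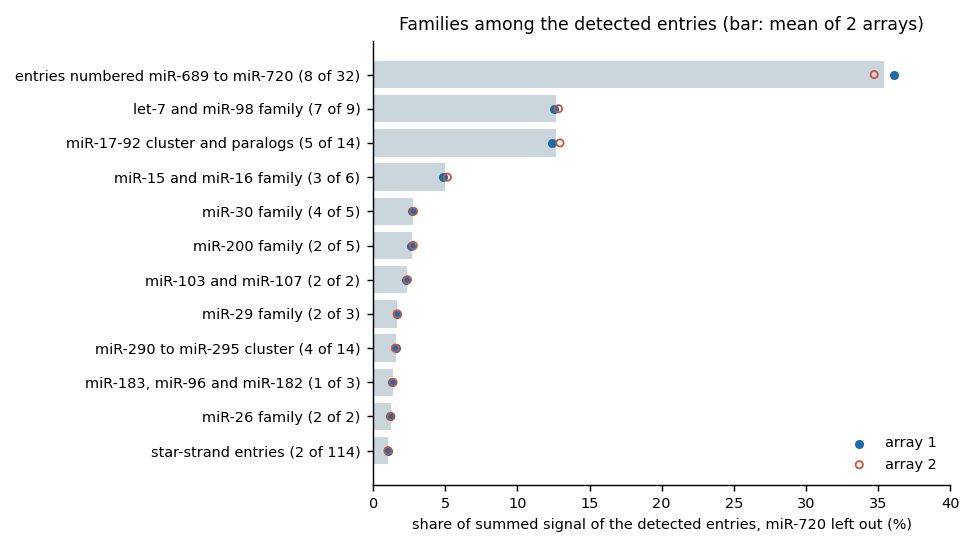
Share of the summed signal (%) held by each family or list with at least 1 detected entry, miR-720 left out of signal and total; bars are the mean of the 2 young small arrays and circles the single arrays. Brackets give detected entries of those on the array, miR-720 included in the first. Let-7 with miR-98 and the miR-17-92 cluster with its paralogs each hold close to 13%, and the miR-15 and miR-16 family follows with 4.995%.

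The let-7 and miR-98 family had 7 of its 9 entries detected (77.8%, against 9.70% of all mouse entries) and held 12.7 ± 0.201% of the signal. This list and the family lists below were chosen with earlier results of these data known, so such counts cannot show an excess. The highest entry of the family was let-7f, with 59.7 and 57.6. Then came let-7a, with 33.8 on either array, and let-7g, with 33.4 and 33.9. Intermediate signals were seen for let-7i, with 23.7 and 24.1, and let-7d, with 20.2 and 20.1. The lowest were let-7b, with 12.9 and 13.6, and let-7c, with 10.2 and 9.88. Within the family the 7 entries kept this order on both arrays, except that let-7a and let-7g changed places. Neither let-7e nor miR-98 was detected, and the higher of their means was 3.14, for miR-98. All 7 detected entries bear the seed GAGGUAG that marks the family, so the share of that seed equals the family's by definition. The related miR-202-3p gave 21.3 and 21.1, a share of 1.39 ± 0.0167%, while the other arm of its hairpin, miR-202-5p, was not detected, with 0.229 and 0.524.

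The miR-17-92 cluster and its paralogs had 5 of 14 entries detected (35.7%, against 9.70% of all mouse entries). Their share of the signal was 12.7 ± 0.381%, which differed from that of let-7 by less than the SD of either. It rested on few bright entries. In the lead were miR-92a, with 59.1 and 60.1, and miR-19b, with 55.4 and 56.5. The 3 entries with the seed AAAGUGC were miR-20a, with 47.8 and 47.7, miR-20b, with 22.2 and 23.6, and miR-93, with 7.02 and 6.77. That seed held 5.09 ± 0.140% of the signal. Their close relatives gave little. Neither miR-17, with 2.004 and 1.29, nor miR-106a, with 1.02 and 0.968, was detected. On array 2 alone, miR-106b was detected, with 4.29 and 6.204, as was miR-19a, with 4.78 and 5.01.

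The miR-15 and miR-16 family had 3 of 6 entries detected, against 9.70% of all mouse entries, and held 4.995 ± 0.209%. The signals were 42.3 and 42.8 for miR-16, 19.4 and 21.2 for miR-15b, and 13.1 and 13.3 for miR-15a. The 3 members not detected, miR-322, miR-497 and miR-195, had means of at most 1.09. Both entries of the pair miR-103 and miR-107 were detected, with 18.9 and 20.2 and with 15.9 and 15.5, a joint share of 2.31 ± 0.0867%. Their mature sequences differ by G22C alone, and their hairpins lie within Pank3, Pank2 and Pank1, genes of pantothenate kinases. The core AGCAGC in bases 1 to 8 was found in 5 of the 47 matched sequences (10.6%), which held 7.31 ± 0.296% of the signal. By count, 13 of the 1679 mature mouse sequences in the RefSeq table (0.774%) hold that core there. The core AAGUGC was likewise found in 5 of the 47 (10.6%), with 5.77 ± 0.0231% of the signal, and in 18 of the 1679 (1.07%). Both cores were picked from the seeds of detected entries, so these counts cannot show an excess.

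The miR-30 family, tied to differentiation in several tissues, had 4 of 5 entries detected, against 9.70% of all mouse entries. It held 2.75 ± 0.0612%. The detected entries were miR-30e, with 14.8 and 13.9, miR-30a, with 10.4 and 10.7, miR-30d, with 8.35 and 8.97, and miR-30c, with 8.19 and 8.36. The fifth, miR-30b, was not detected and had a mean of 2.75. The miR-29 family, which targets collagens and DNA methyltransferases, had 2 of 3 detected, against the same 9.70%, and held 1.64 ± 0.0310%. They were miR-29b, with 15.9 and 15.04, and miR-29a, with 9.10 and 9.93. Both miR-26 entries, known to target Ezh2, were detected: miR-26b gave 9.89 on either array and miR-26a 8.58 and 8.59, together 1.21 ± 0.0237%.

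The miR-200 family, known in epithelia for restraining Zeb1 and Zeb2, was split. Its members miR-141, with 25.7 and 26.0, and miR-200c, with 15.04 and 15.7, were detected and held 2.71 ± 0.0985%, whereas miR-200a, miR-200b and miR-429 had means of at most 0.366. In the mouse the detected pair lies in one cluster on chromosome 6 and the other 3 form a second cluster. Of miR-183, miR-96 and miR-182, sensory organ microRNAs made from one transcript, miR-96 alone was detected, with 20.1 and 20.7, against means of 3.74 for miR-183 and 1.92 for miR-182.

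The cluster from miR-290 to miR-295, active in early embryos and embryonic stem cells, had 4 of 14 entries detected. This was 28.6%, against 9.70% of all mouse entries, and all 4 were below 10. They were miR-292-3p, with 6.24 and 7.69, miR-291b-5p, with 6.17 and 6.97, miR-294, with 5.51 and 4.76, and miR-291a-3p, with 6.68 and 3.64. Together they held 1.56 ± 0.0427%. The highest signal among the rest was that of miR-295, with 3.90 and 4.996, which also bears the seed AAGUGCU. No entry of the miR-302 and miR-367 cluster, the other cluster of pluripotent cells, was detected.

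In 6 lists, with 26 entries together, no entry was detected on both arrays: miR-23 with miR-24 and miR-27, miR-99 with miR-100, miR-125, miR-34 with miR-449, miR-148 with miR-152, and miR-181. Beside 9.70% of all mouse entries, a count of 0 in a list of 3 to 7 entries is near the background. Of these, miR-24 was detected on array 2, with 5.001 and 5.75, and so was miR-125b-5p, with 2.52 and 3.87. The entry miR-148a had the highest mean of all mouse entries outside the 55, with 5.82 and 5.90, and was detected on neither array.

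A further 15 detected entries belonged to no family list and lay outside the range from miR-689 to miR-720; miR-1224 and miR-202-3p are given above and 2 star strands below. After miR-1224 the brightest was miR-494, with 50.6 and 47.5 and a share of 3.22 ± 0.0854%. It was followed by miR-365, with 18.4 and 17.5, by miR-671-5p, with 17.2 and 16.9, and by miR-22, with 15.3 and 16.2. A mean of 10.3 was found for miR-574-5p and of 9.498 for miR-345-5p. The means of miR-155, miR-320, miR-21, miR-296-5p and miR-652 lay between 4.25 and 7.57. Of these, miR-155 is known from immune cells, miR-21 from granulosa and many other cells, and miR-320 as a hairpin made without Drosha.

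Hairpins that lie together did not always give signal together. The 47 matched entries have 57 loci in the RefSeq table used, which may not hold every locus. Of these entries, 10 are encoded there at more than 1 locus that the array cannot tell apart. A hairpin within 10 kb of another on the same strand encodes 28 of the 47. The share of all mouse hairpins that lie so was not computed. Only clusters that encode a matched entry were taken, 20 in all, so none could lack a detected entry. In 19 of these at least 2 hairpins had an entry on the array; in 7 every such hairpin had a detected entry, and in 12 some had none. The complete clusters were let-7a-1 with let-7f-1 and let-7d (chr13:48536012-48538272, minus strand), miR-15a with miR-16-1, miR-15b with miR-16-2, let-7c-2 with let-7b, miR-30e with miR-30c-1, miR-29b-1 with miR-29a, and miR-200c with miR-141 (chr6:124717914-124718390, minus strand).

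In the cluster of 6 hairpins at chr14:115043671-115044506 on the plus strand, which spans 836 bases, the last 3 hairpins in transcript order, miR-20a, miR-19b-1 and miR-92-1, had detected entries and the first 3, miR-17, miR-18a and miR-19a, had none on both arrays. Its paralog on chromosome X likewise had 3 of 6, although 2 of these, miR-19b and miR-92a, have the same mature sequence as on chromosome 14. The entry of miR-494 stood alone in the largest cluster, 38 hairpins at chr12:109709060-109747960 on the plus strand, an imprinted locus transcribed from the maternal chromosome. Of its 50 array entries 1 was detected, and the highest mean of the other 49 was 1.249, for miR-154. The sequence of miR-494 is shown for that contrast:
miR-494: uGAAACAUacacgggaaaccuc
The partner of miR-365 on chromosome 16, miR-193b, had a mean of −1.49, and that of let-7c-1, miR-99a, a mean of −0.33.

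**Figure D4:**
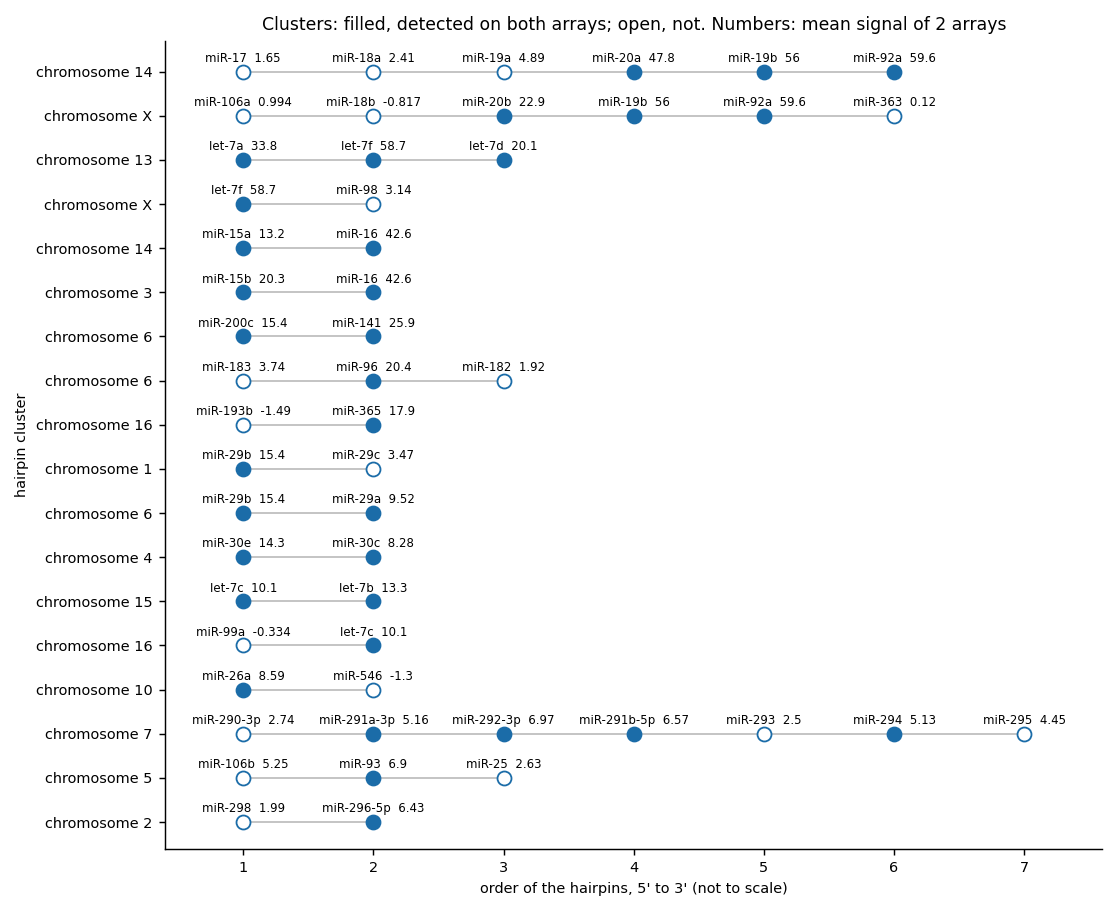
Hairpins of 18 RefSeq clusters in transcript order, each shown by its brighter array entry with that entry's mean signal on the 2 young small arrays; filled circles were detected on both arrays, open circles were not. The cluster on chromosome 12 that holds miR-494 is left out for its size. Every hairpin is filled in 7 clusters, and in the first row only miR-20a, miR-19b and miR-92a are.

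Of the 47 matched entries, 24 have at least 1 locus within the span of a protein-coding gene, strand not considered. Among them are miR-15b with miR-16-2 in Smc4, let-7g in Wdr82, miR-26b in Ctdsp1, miR-93 in Mcm7 and miR-30e with miR-30c-1 in Nfyc. The share of all mouse microRNAs with such a locus was not computed, so the 24 cannot be read as a trait of the detected entries. Levels of these genes were not measured on this array.

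No hairpin with both arms on the array had both detected. The array reads both arms of 164 hairpins under paired names. For 33 of them 1 arm was detected and for 0 both were. With 9.70% of all mouse entries detected, few pairs would have both arms detected even if the arms were independent. The count of 0 is near that background and does not show that the arms exclude each other. Star entries, the arm once taken to be the lesser product, were detected for 2 of 114 (1.75%, against 9.70% of all mouse entries). These were miR-483*, with 8.67 and 7.89, and miR-877*, with 7.02 and 7.49. Their partners were not detected: miR-483 gave 2.55 and 3.68 and miR-877 gave −1.08 and −1.41. Both hairpins lie within protein-coding genes, Igf2 and Abcf1, and miR-877 is a mirtron. The highest star entries outside the 55 were miR-140*, with a mean of 3.51, and let-7b*, with 3.38.

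Seeds were shared by many of the entries. The 47 sequences held 31 seeds, of which 8 were shared by 2 or more entries, 24 in all, with 30.8% of the signal. How often seeds are shared over all mouse microRNAs was not computed, so this is a description only. A U at the first base, the base that Argonaute proteins favour, was found in 30 of 47 (63.8%); over the 1679 mature mouse sequences of RefSeq, many of which are not on this array, the share was 40.9%. Among the 30 sequences from the family lists it was 22, and among the 17 others 8. The median GC content was 43.5% over the 47 sequences, 40.9% in the family lists, 50.0% in the others and 52.2% over RefSeq. Lengths ran from 21 to 23 bases.

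No microRNA is known to define the oocyte, so the label could be checked only against microRNAs of other cells. These lists are short, and with 9.70% of all mouse entries detected, a count of 0 in any one of them is near that background and says little on the label. None of the 7 blood cell entries (miR-223 and miR-451 among them) was detected on either array. Their summed signals were 5.36 and 4.75 with negative values included, and 6.76 and 6.63 over the positive values alone. The highest was miR-223, with 4.83 and 3.31, close to the lowest detected entries, while miR-142-5p and miR-150 were at or below 0 on both arrays. The 2 arms of miR-126, which mark endothelium, summed to 1.40 and 0.980. All 4 stromal and smooth muscle entries on the array were undetected, with sums of −4.71 and −4.20, and miR-143, miR-145 and miR-214 were at or below 0 on both. Liver, muscle, brain and pancreas were represented by 14 entries, of which none was detected, and 8 of them were at or below 0 on both. Of 7 granulosa and follicle entries, 2 were detected on both arrays, miR-202-3p and miR-21, the latter with 7.55 and 6.61. Another, miR-212, was detected on array 1 alone, with 3.36 and 2.60, while miR-132 and miR-503 were at or below 0 on both. The 7 summed to 30.9 and 29.5, most of it from miR-202-3p, and the part of granulosa cells in the signal was not tested.

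The duplicate arrays were close. The median ratio of the higher to the lower signal was 1.05 over the 55 entries, and 43 lay within 1.1-fold and 50 within 1.2-fold. Array 2 was higher for 29 entries and array 1 for 26. The arrays differed by no more than their combined deposited errors for 52 entries. The exceptions were miR-291a-3p, with a 1.84-fold ratio, miR-712, with 1.44-fold, and miR-702, with 1.23-fold, all higher on array 1. The deposited error was 6.74% to 12.9% of the signal among the 25 brightest entries and 13.2% to 35.6% among those with a mean below 10. At least 0.8 of each detected entry's spots were kept as inliers.

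The limit of detection was not a sharp line in signal. The 5 lowest entries inside it were miR-652, with 4.49 and 4.01, then miR-294, miR-291a-3p and miR-712, given above, and miR-296-5p, with 6.23 and 6.63. The 5 highest outside were miR-148a, miR-24 and miR-106b, given above, miR-484, with 5.16 and 4.82, and miR-19a. By mean signal, 7 entries outside lay above miR-652 and 4 inside lay below miR-148a. The ratio of signal to deposited error did not separate them either. It was 2.93 and 2.81 for miR-652, which was detected, and 3.77 and 4.06 for miR-148a, which was not. Of the 512 mouse entries outside, 507 were detected on neither array and 5 on 1: miR-24, miR-106b, miR-19a and miR-125b-5p on array 2 and miR-212 on array 1. The unscaled sum over the 54 entries was 1544 and 1504 on these arrays. On the other 4, of large oocytes from young and aged mice, it ran from 2312 to 3880, with 78 to 101 detected mouse entries. These values are given only to show the amount of signal, and a difference between the groups was not tested. Fewer oocytes or less RNA per oocyte on an array cannot be told apart from lower microRNA content, so an undetected entry is not shown to be absent.

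**Figure D5:**
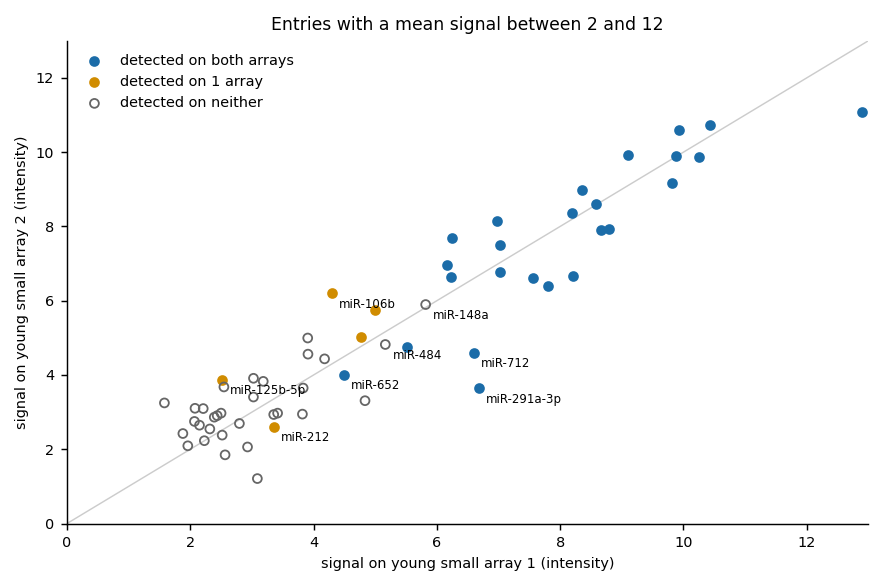
Signal on young small array 2 against array 1 (intensity) for mouse entries with a mean between 2 and 12; blue, detected on both arrays; amber, on 1; open, on neither; the line marks equal signal. Between signals of about 4 and 6 the 3 kinds lie among each other, and above about 7 every entry is detected.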

How the data were processed

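Total RNA of pooled oocytes was labelled with cyanine 3 and hybridised to mouse microRNA arrays, per the labels. Per the submitters' processing notes, Agilent Feature Extraction 9.5 read the images. Each entry has, per the file headers, a linear total signal intensity, its error, a detection flag, and the fraction of its spots kept as inliers; how the software set the flag is not given in the sources used here. Signals at or below 0 made up 55.9% and 51.3% of the mouse entries on the 2 young small arrays, so background had been subtracted. No scaling between arrays was applied, since a share is formed within an array. The authors' series table repeats these intensities, with any below 10 replaced by 0: 0 of 567 mouse entries differed on either array by over 0.001.

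Of 600 entries, 567 were of mouse, 10 were of a mouse herpesvirus and 23 were controls. Members were mouse entries flagged as detected on both young small arrays. They were ranked by mean signal, and each signal was divided by the array's summed member signal without miR-720. Named entries were the 25 highest and 5 lowest members, the 5 highest non-members, those detected on 1 array, the 3 with the largest ratio between arrays, and the detected members of 17 lists. A list of entries numbered miR-689 to miR-720 was added after values were seen. Members and lists were chosen with earlier results of these data known. No test was run, and the number of arrays limits the precision.

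Mature sequences, hairpin positions and neighbouring genes came from RefSeq tables of GRCm38.p6, matched by name, with the arm set by hand from later microRNA names; 47 of 55 members matched. Hairpins at most 10 kb apart on one strand formed a cluster. The share functions were checked on simulated signals with known shares. Alternatives changed the detection rule, the entries in the total, the source table, or left out an array. Python 3.11, numpy 2.4.6 and matplotlib 3.10.9 were used.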

Additional observations from a re-analysis of the deposited data

Results flagged for a closer look

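Apart from the mouse entries, 7 entries were detected on both young small arrays and enter no result above. One of them belongs to a mouse herpesvirus, mghv-miR-M1-2, which gave 26.7 and 25.6 (mean 26.2), a signal that would stand between those of let-7g and miR-141 in the mouse ranking. The other 9 entries of that virus were detected on neither array, and their highest signal was 1.59. An entry that is not of mouse was thus flagged as detected at a signal above that of many mouse entries. What its probe bound was not tested.

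The other 6 were control entries of the array. The 4 detected hur controls had mean signals of 5158.85 (hur_1), 18022.7 (hur_2), 1923.44 (hur_4) and 3283.4 (hur_6), while hur_5 was not detected, at −1.84 and −0.406. The bright corner spots gave a mean of 497.1 and the control mr_1 a mean of 596.4. What RNA the hur and mr_1 controls read is not given in the sources used here.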

How the results depend on the processing

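The number of detected entries was 58 when a signal of at least 3 times its deposited error was required on both arrays and 60 when detection on 1 array was enough. It was 32 when entries had to be above 0 on both arrays in the series table, where signals under 10 are set to 0, and 56 to 59 with an array left out. The number of entries that held 50% of the signal was 1 with miR-720 in the total, 10 with miR-709 also left out, 8 over all 209 mouse entries above 0, 4 in the series table, and 5 to 6 with an array left out. The share of miR-709 was 2.69% with miR-720 in the total, 26.2% over all entries above 0, 33.8% in the series table, and 29.0% to 30.5% with an array left out. With miR-709 left out, miR-1224 ranked first, with 11.8%. The let-7 and miR-98 share was 1.14% with miR-720 in the total, 18.1% without miR-709, 11.4% over all entries above 0, 13.6% in the series table, and 12.5% to 12.7% with an array left out. Each of these alternatives changes which entries form the total. Shares of the summed signal of both arrays gave 29.97% for miR-709 and 12.7% for let-7 and miR-98. Of 61 recomputed shares of 9 other families, 26 moved by no more than the SD of the 2 arrays and 35 by more. Keeping miR-720 or leaving out miR-709 changes the total alone, and all 9 shares moved under each. The tally is therefore no measure of how stable the shares are. The order of the 3 largest families was kept under 4 of 7 alternatives. Among these were keeping miR-720 and leaving out miR-709, which scale every family on an array alike and could hardly reorder them. The shares of the first 2, let-7 with miR-98 and miR-17-92 with its paralogs, differ by less than their SDs. The miR-17-92 share was the higher over all entries above 0 (12.1% against 11.4%) and in the series table (13.8% against 13.6%). It was also the higher with array 1 left out (13.5% against 12.7%). No paired analysis was made, since no test between groups was run. Signals under 10 lie near the limit of detection, and neither their order nor their absence can be read closely.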
